A study of Homo sapiens with 21 samples.

Results

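The 10 genes described here make up the STAT5 branch of cytokine signalling and its feedback: the kinase gene JAK2, the transcription factor genes STAT5A and STAT5B, the ligand gene OSM, the kinase genes PIM1 and PIM2, and the inhibitor genes CISH, SOCS1, SOCS2 and SOCS3. They were chosen by name, with earlier results of these data known, and matched by Ensembl ID. All 10 were found among the 61541 genes of a gene count table and among the 57300 gene names of a set of exon bin files, where they hold 185 of 685251 bins. An exon bin is a stretch of exon sequence that is counted separately from its neighbours. No member lies in a bin name that joins overlapping genes. OSM stayed below the filter on low counts throughout, so 9 of the 10 genes were tested in every comparison.

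The libraries came from K562 cells, which were established from a chronic myeloid leukaemia, in 7 groups of 3. A group labelled 34kn and a group labelled 34kp each overexpress a different enhancer RNA from a site 34 kb upstream of MYB, and each has control libraries of its own (spelled 34knContol and 34kpContol in the labels). Groups labelled for overexpression of MYB and of NMYB share a group with empty vector. The series' design text names an N-terminally truncated MYB, while the label NMYB is not spelled out. The vectors, the promoters that drive them, the time after transfer and the separateness of the replicate cultures are not stated in the labels. The p-values therefore set each difference only against the spread between these samples, and that spread may be technical.

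Cytokine receptors of the haematopoietic class carry JAK kinases. After a ligand binds, the kinases phosphorylate STAT5 proteins, which enter the nucleus and bind DNA as dimers at motifs of the form TTCNNNGAA. Among the best known targets in blood cells are CISH, SOCS2, PIM1 and OSM. The products of CISH and the SOCS genes bind phosphorylated receptors or JAKs through an SH2 domain and dampen the signal, while PIM kinases need no activating phosphorylation, so that their activity follows the amount of protein. K562 cells carry the BCR-ABL1 fusion kinase, which is known to keep STAT5 phosphorylated without cytokine. Phosphorylation was not measured in these libraries, which hold RNA levels only.

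Each library of the gene table held 16552237 to 24462819 counts, and each bin file 36563252 to 41243796. No pair of replicates agreed within sampling noise (chi-square over its degrees of freedom between 1.56 and 53.7), so each library was kept. All 8 erythroid marker genes were present in the gene table. Of 9 markers of lymphoid, monocytic and fibroblast cells, the B-cell marker MS4A1 was at 0 in all libraries, and the 9 together summed to 45.1 to 50.03 CPM (counts scaled to a common library size) in libraries labelled MYB, to 49.8 to 54.0 CPM in libraries labelled NMYB and to 39.8 to 44.2 CPM with empty vector. Both construct groups thus lay above empty vector, and the part of this in the changes below was not tested. The transcript of MYB itself stood at 231, 228 and 222 CPM in libraries labelled MYB, at 215, 202 and 217 CPM in libraries labelled NMYB and at 216, 210.3 and 219 CPM with empty vector. Its log2 fold change was 0.08 for MYB (adjusted p = 0.230) and −0.03 for NMYB (adjusted p = 0.727) by edgeR. Every library labelled MYB lay above every empty-vector library, by a small margin, while those labelled NMYB overlapped empty vector. Neither change passed the test. Overexpression was thus not established from the transcript under either label, and each direction below rests on the label.

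Levels of the members spanned a wide range in empty-vector libraries. Divided by the merged exon length of GENCODE 29, PIM1 was highest at 122 ± 1.42 CPM per kb and STAT5A followed at 94.5 ± 1.55 CPM per kb (SD, n = 3 each). PIM2 and STAT5B were next at 47.9 ± 1.62 and 42.9 ± 0.419 CPM per kb. SOCS2, CISH, JAK2 and SOCS3 lay at 9.83 ± 0.417, 8.09 ± 0.274, 6.78 ± 0.438 and 4.37 ± 0.132 CPM per kb. SOCS1 had 0.402 ± 0.0718 CPM per kb, from 10 to 16 counts a library. OSM came last at 0.0436 ± 0.0317 CPM per kb, from 1 to 3 counts a library. The libraries of neighbouring genes in this order did not overlap.

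The comparison of libraries labelled MYB with empty vector asks what the construct of that name changes. Of 9 members tested, 1 rose and 4 fell: PIM2 rose, and SOCS3, STAT5B, STAT5A and PIM1 fell. The share of all 15823 genes that passed the same test was 22.3%, with 9.62% higher and 12.7% lower; without TMM scaling 2130 genes were called higher and 1622 lower, against 1522 and 2007. In 6 of the 9 members the libraries labelled MYB did not overlap those with empty vector, as in 40.5% of all genes, and in 5 of the 9 those labelled NMYB did not, as in 38.9% of all genes. SOCS3 changed most, and the other called changes stayed within 0.27 on the log2 scale. In bulk RNA, fewer cells of a type and less RNA per cell cannot be told apart.

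JAK2, which encodes the tyrosine kinase bound to the erythropoietin and thrombopoietin receptors (GRCh38, GENCODE 29, chromosome 9, 4984390 to 5128183, plus strand), stood at 37.7, 38.3 and 38.7 CPM in libraries labelled MYB, at 36.9, 31.5 and 38.5 CPM in libraries labelled NMYB and at 44.7, 41.4 and 39.4 CPM with empty vector. The empty-vector libraries were above every other library. For NMYB the log2 fold change came to −0.23 (SE 0.0722, adjusted p = 0.0250), and for MYB to −0.13 (SE 0.0709, adjusted p = 0.202). The NMYB call ended without empty vector 1 (adjusted p = 0.143), without NMYB 2 (adjusted p = 0.0850) and with only the 2 groups in the fit (adjusted p = 0.0523).

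STAT5A and STAT5B encode near-identical proteins from neighbouring genes on chromosome 17 (42287547 to 42311943, plus strand, and 42199168 to 42276707, minus strand). Of the distinct 50-base stretches in their annotated transcripts, 8.61% of those of STAT5A and 7.81% of those of STAT5B also occur in the other gene, so reads from those stretches could be counted for either.

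STAT5B had 237, 230.4 and 222 CPM in libraries labelled MYB, 229, 240.0 and 224 CPM in libraries labelled NMYB, and 277, 274 and 279 CPM with empty vector. All 6 libraries of the constructs lay below all 3 with empty vector. Its log2 fold change came to −0.27 (SE 0.0428, adjusted p = 1.57e-04) for MYB and −0.26 (SE 0.0430, adjusted p = 2.07e-04) for NMYB.

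STAT5A had 499.9, 515 and 469.9 CPM in libraries labelled MYB, 502, 555 and 501 CPM in libraries labelled NMYB, and 536, 554 and 543 CPM with empty vector. The libraries labelled MYB lay below those with empty vector, while NMYB 2 lay above them. By edgeR its log2 fold change came to −0.14 (SE 0.0459, adjusted p = 0.0392) for MYB and −0.07 (SE 0.0460, adjusted p = 0.321) for NMYB. The MYB call ended when any 1 of the 6 libraries was left out (adjusted p = 0.0534 to 0.181), with DESeq2 (adjusted p = 0.0645) and without TMM scaling (adjusted p = 0.123). For NMYB, STAT5A passed the test without NMYB 2 (adjusted p = 0.0232) but not without any 1 of the other 5 libraries (adjusted p = 0.361 to 0.617).

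The ratio of STAT5A to STAT5B, each per length, was 2.37, 2.50 and 2.37 in libraries labelled MYB, 2.46, 2.59 and 2.51 in libraries labelled NMYB, and 2.17, 2.26 and 2.18 with empty vector. Both sets of construct libraries lay above those with empty vector, at means of 2.41 ± 0.0793 for MYB, 2.52 ± 0.0667 for NMYB and 2.203 ± 0.0530 for empty vector (SD, n = 3 each). A two-sided exact permutation test gave p = 0.1 for either construct against empty vector, which is the smallest p that 3 libraries against 3 allow.

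OSM encodes oncostatin M, a cytokine of the interleukin 6 family that blood cells secrete (chromosome 22, 30262829 to 30266840, minus strand). It had 0, 2 and 1 counts in libraries labelled MYB, 0, 0 and 1 counts in libraries labelled NMYB, and 1, 1 and 3 counts with empty vector. In the bin files, where a read that spans several bins may be counted in each, it had 0, 13 and 4 counts with 34kn against 3, 8 and 8 in 34kn controls. With 34kp it had 4, 2 and 2 counts, against 6, 4 and 7 in 34kp controls. No change of OSM was detectable at these depths.

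PIM1 and PIM2 encode related serine/threonine kinases that favour survival and growth of blood cells, and they moved in opposite directions. PIM2 (chromosome X, 48913182 to 48919024, minus strand) had 160.3, 159 and 157 CPM in libraries labelled MYB, 161, 156 and 158 CPM in libraries labelled NMYB, and 128, 137 and 131 CPM with empty vector. Every construct library lay above every empty-vector library. Its change on the log2 scale was 0.26 (SE 0.0448, adjusted p = 2.72e-04) for MYB and 0.26 (SE 0.0449, adjusted p = 3.21e-04) for NMYB.

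PIM1 (chromosome 6, 37170203 to 37175426, plus strand) had 329, 342 and 329 CPM in libraries labelled MYB, 341, 344 and 329 CPM in libraries labelled NMYB, and 361, 369 and 364 CPM with empty vector. With empty vector every library lay above every construct library, while the construct groups overlapped each other. On the log2 scale the change was −0.13 (SE 0.0393, adjusted p = 0.0235) for MYB and −0.11 (SE 0.0394, adjusted p = 0.0497) for NMYB. The MYB call ended without any 1 of the 6 libraries (adjusted p = 0.0546 to 0.103) and without TMM scaling (adjusted p = 0.0943). The NMYB call ended without any 1 of 5 libraries, the exception being NMYB 2 (adjusted p = 0.0747 to 0.170 without each of the 5), with DESeq2 (adjusted p = 0.0539), without TMM scaling (adjusted p = 0.104) and with only the 2 groups in the fit (adjusted p = 0.0773).

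CISH, whose product blocks STAT5 docking at activated receptors (chromosome 3, 50606490 to 50611831, minus strand), had 43.6, 42.1 and 41.2 CPM in libraries labelled MYB, 41.0, 47.4 and 40.5 CPM in libraries labelled NMYB, and 39.8, 41.8 and 42.5 CPM with empty vector. The 3 groups overlapped. The log2 fold change by edgeR was 0.03 for MYB (adjusted p = 0.750, 95% interval −0.10 to 0.17) and 0.05 for NMYB (adjusted p = 0.608, 95% interval −0.08 to 0.19).

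CISH is also the member whose promoter window holds the STAT5-type motif. Windows from 250 bases before to 50 bases after the gene start were taken from RefSeq (GRCh38.p14) for the 8 members matched by symbol, that is, all but OSM and SOCS2, in 14 windows. The motif TTCNNNGAA, which reads the same on both strands, was searched with overlapping matches allowed. It occurred in 7.66% of 35116 windows of all genes, and in 9.38% of 27305 genes. Of the 8 members 1 had it, CISH, at 4 places that begin 241, 230, 129 and 112 bases before the start. At least 3 matches were found in 17 windows of all genes (0.0484%). The bases before the start are shown for CISH, with the matches in capitals, and for PIM1 and PIM2, the kinase pair that moved in opposite directions in libraries labelled MYB and NMYB, which hold no match. A match is a string of letters and not a measured binding site, and its absence says only that these letters are not in this window.
CISH (chr3:50611775-50612024, minus strand): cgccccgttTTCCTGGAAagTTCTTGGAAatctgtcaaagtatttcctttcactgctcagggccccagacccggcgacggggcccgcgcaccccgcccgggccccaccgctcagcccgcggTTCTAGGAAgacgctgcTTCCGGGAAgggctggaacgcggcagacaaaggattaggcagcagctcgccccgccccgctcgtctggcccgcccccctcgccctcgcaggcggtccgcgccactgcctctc
PIM1 (chr6:37169902-37170151, plus strand): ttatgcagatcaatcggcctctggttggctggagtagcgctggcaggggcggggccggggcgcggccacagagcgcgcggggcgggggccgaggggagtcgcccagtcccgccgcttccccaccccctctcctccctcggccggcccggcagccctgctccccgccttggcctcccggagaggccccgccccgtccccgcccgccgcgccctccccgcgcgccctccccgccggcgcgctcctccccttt
PIM2 (chrX:48919025-48919274, minus strand): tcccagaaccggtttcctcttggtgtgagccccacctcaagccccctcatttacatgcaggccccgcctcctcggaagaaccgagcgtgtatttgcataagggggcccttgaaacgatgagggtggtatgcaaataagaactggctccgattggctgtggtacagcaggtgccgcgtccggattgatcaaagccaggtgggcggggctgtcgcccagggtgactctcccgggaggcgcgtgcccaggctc

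SOCS3 encodes an inhibitor that binds JAK kinases and receptors of the interleukin 6 class (chromosome 17, 78356778 to 78360077, minus strand). It had 7.16, 7.40 and 7.45 CPM in libraries labelled MYB, 8.18, 10.5 and 7.55 CPM in libraries labelled NMYB, and 12.2, 12.1 and 11.5 CPM with empty vector. All construct libraries lay below all empty-vector libraries, and NMYB 2 was the highest of the 6. SOCS3 had a log2 fold change of −0.70 (SE 0.109, adjusted p = 1.03e-04) for MYB and −0.46 (SE 0.109, adjusted p = 0.00432) for NMYB, from 145 to 243 counts a library.

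SOCS2 encodes the inhibitor best known for limiting growth hormone signalling (chromosome 12, 93569814 to 93583487, plus strand). It averaged 68.7 ± 2.25 CPM in libraries labelled MYB, 69.3 ± 4.202 CPM in libraries labelled NMYB and 66.6 ± 2.83 CPM with empty vector (SD, n = 3 each). Its log2 fold change was 0.05 for MYB (adjusted p = 0.612, 95% interval −0.07 to 0.16) and 0.06 for NMYB (adjusted p = 0.496, 95% interval −0.06 to 0.18). SOCS1, an inhibitor of JAK kinases in interferon signalling (chromosome 16, 11254405 to 11256200, minus strand), rested on 19 to 24 counts a library for MYB, 13 to 26 for NMYB and 10 to 16 for empty vector. Its 95% intervals ran from −0.14 to 1.14 on the log2 scale for MYB and from −0.25 to 1.09 for NMYB, too wide to tell a 2-fold difference from none at this depth.

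**Figure D1:**
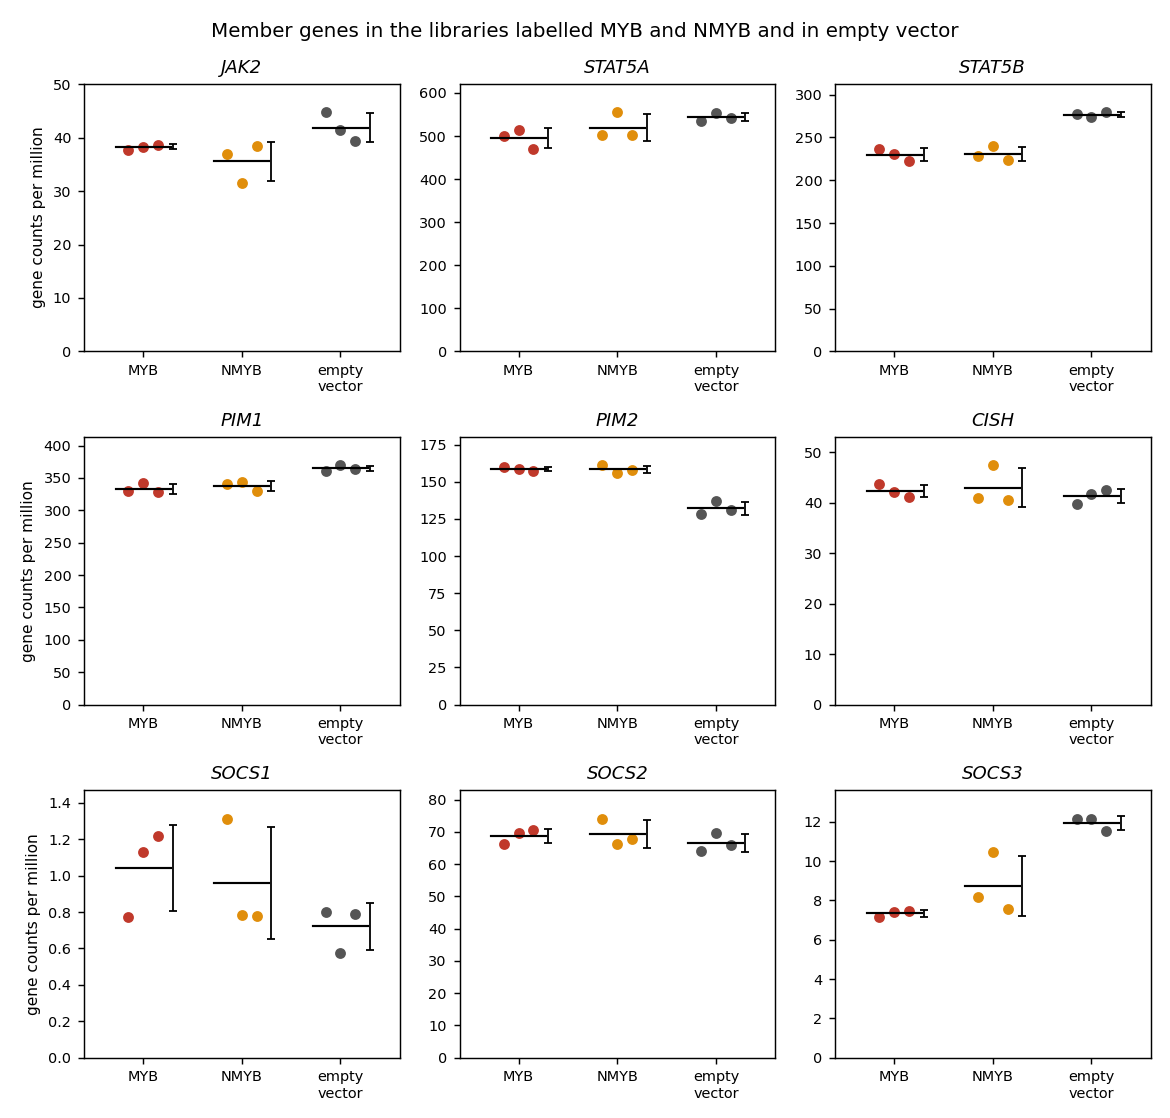
Gene counts as CPM scaled by TMM (vertical axis, from 0) of the 9 tested members in the 3 libraries labelled MYB, the 3 labelled NMYB and the 3 with empty vector; points are libraries in replicate order, lines are means and bars are 1 SD. JAK2, STAT5B, PIM1 and SOCS3 lie lower and PIM2 lies higher in all 6 construct libraries than in any empty-vector library.

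Against the same empty-vector libraries, the libraries labelled NMYB also had 1 member higher and 4 lower, with JAK2 in the place of STAT5A. The share of all genes called was 24.9%, with 12.6% higher and 12.4% lower. Since both comparisons use the same 3 controls, their values are set side by side above, and their likeness is not a result. The calls of STAT5B, PIM2 and SOCS3 held in both comparisons when each library in turn was left out, with a highest adjusted p of 0.0284, for SOCS3 with NMYB.

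The direct comparison of libraries labelled NMYB with those labelled MYB asks how the constructs differ. Of the 9 members tested, edgeR called 0, and 1 (SOCS3) had an unadjusted p below 0.05; DESeq2 also called 0. Over all genes edgeR called 1.14%. SOCS3 was higher in each NMYB library than in any MYB library, with a log2 fold change of 0.24 (SE 0.114, adjusted p = 0.275). SOCS3 was the 1 member of 9 whose groups did not overlap, beside 22.8% of all genes. The 95% intervals of the others, SOCS1 aside, lay within −0.25 and 0.17 on the log2 scale.

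The 34kn comparison asks what the enhancer RNA of that name changes against its control libraries. Of 9 members tested, edgeR called 0, and 3 had an unadjusted p below 0.05, while DESeq2 called 1. Over all 16116 genes edgeR called 0, which is 0%, with 3759 at an unadjusted p below 0.05, and DESeq2 called 1289. In 5 of the 9 members the 34kn libraries did not overlap their controls, beside 29.2% of all genes.

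SOCS3, the member that DESeq2 called (adjusted p = 0.0218), had 23.2, 22.3 and 21.6 CPM with 34kn, against 35.9, 24.95 and 28.3 CPM in 34kn controls. The controls lay above all 34kn libraries, and control 1 stood far above the other controls. In log2 terms the change was −0.42 (SE 0.121, adjusted p = 0.0888 by edgeR). It passed the test with no filter on low counts (adjusted p = 0.00414) and without 34kn control 2 (adjusted p = 0.00767), but not without any 1 of the other 5 libraries (adjusted p = 0.141 to 0.299). Without 34kn control 1 the log2 fold change was −0.25.

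JAK2 had 52.6, 43.8 and 47.3 CPM with 34kn, against 35.9, 44.9 and 39.7 CPM in 34kn controls, with control 2 above the lowest 34kn library. Its log2 fold change was 0.25 (SE 0.0992, adjusted p = 0.165). It passed the test without 34kn control 2 (adjusted p = 0.0264) but not without any 1 of the other 5 libraries (adjusted p = 0.286 to 0.479) or with DESeq2 (adjusted p = 0.0948). PIM2 had 138, 136 and 134 CPM with 34kn, against 152, 141 and 155 CPM in 34kn controls, groups that did not overlap (log2 fold change −0.14, SE 0.0624, adjusted p = 0.198).

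STAT5A averaged 486 ± 6.63 CPM with 34kn and 502 ± 26.7 CPM in 34kn controls (SD, n = 3 each), and its 95% interval ran from −0.18 to 0.07 on the log2 scale. STAT5B, PIM1 and CISH had log2 fold changes of 0.04, −0.07 and −0.11, with adjusted p between 0.363 and 0.695. SOCS2 stood at 0.13 (adjusted p = 0.253), with all 34kn libraries above all 34kn controls, and SOCS1 at −0.44 (adjusted p = 0.219). Over the 9 members the median log2 fold change was −0.07, against 0.00 over all genes tested.

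The 34kp comparison asks the same of the other enhancer RNA. Of 9 members tested, 1 was called, STAT5A, and it was higher; 2.35% of 16662 genes were called and 0.63% were called higher. Of all calls 105 were higher and 287 lower, or 75 and 409 without TMM scaling. In 3 of the 9 members the 34kp libraries did not overlap their controls, beside 23.8% of all genes.

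STAT5A had 398, 397 and 359 CPM with 34kp, against 247, 256 and 278 CPM in 34kp controls. The lowest 34kp library stood well above the highest control. The estimate on the log2 scale was 0.56 (SE 0.0749, adjusted p = 0.00394), a 1.47-fold difference with a 95% interval from 1.31 to 1.65. The call ended without 34kp control 2 (adjusted p = 0.0586), while the log2 fold change stayed at 0.55. Reads set aside for low alignment quality made up 4.46% to 4.64% of all counts listed with 34kp and 7.15% to 8.35% in 34kp controls, and their part in this result was not tested.

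STAT5B, beside it, had 194, 195 and 197 CPM with 34kp, against 177, 186 and 187 CPM in 34kp controls. The groups did not overlap, but the log2 fold change of 0.09 (SE 0.0679, adjusted p = 0.552) did not pass the test. On bin counts, which are not scaled for length here, the ratio of STAT5A to STAT5B was 2.04, 2.04 and 1.82 with 34kp, against 1.39, 1.38 and 1.48 in 34kp controls. Its mean was 1.97 ± 0.128 with 34kp and 1.42 ± 0.0584 in 34kp controls (SD, n = 3 each; exact permutation test, two-sided, p = 0.1, the smallest possible). The ratio did not set 34kn apart, at 2.01 ± 0.0616 with 34kn and 2.15 ± 0.191 in 34kn controls (exact permutation test, two-sided, p = 0.5, n = 3 each).

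The higher level of STAT5A was seen in each of its bins that passed the filter. The bin counts were summed into the gene value tested above, so they are not separate support for that call. Of its 46 bins, 35 passed the filter in the 34kp experiment, and all 35 had a higher mean with 34kp than in 34kp controls. In 27 of them every 34kp library lay above every control. The log2 ratios of the means ran from 0.41 to 1.06, with a median of 0.56. In the 34kn experiment the same 35 bins had log2 ratios between −0.73 and 0.24, with a median of −0.15 and 27 below 0. The bin files give no coordinates, and GENCODE 29 divides STAT5A into 41 bins, so no bin of this gene was placed on the genome.

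**Figure D2:**
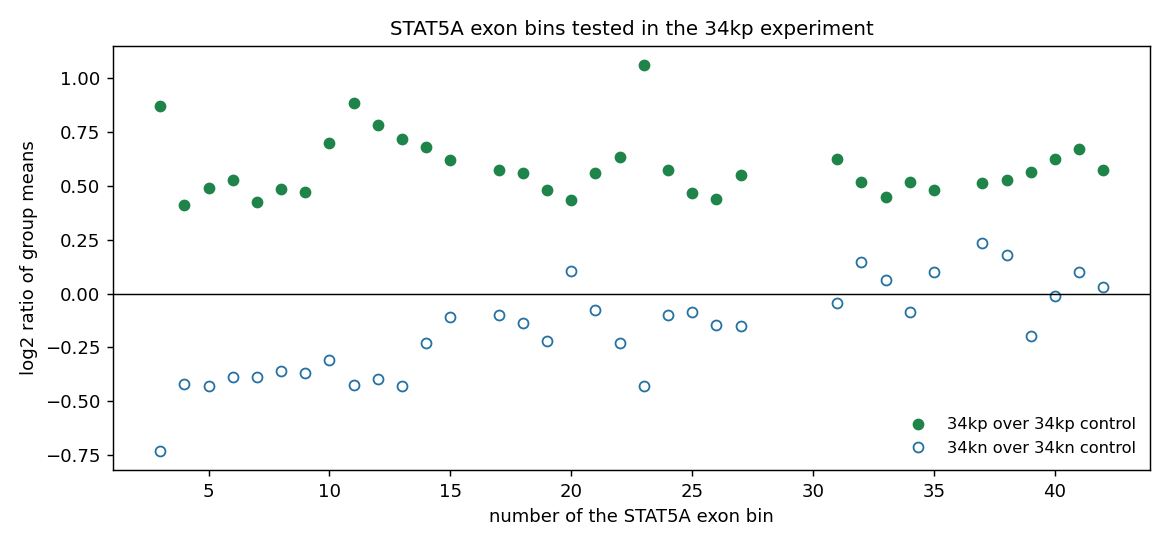
Log2 ratio of the group means in CPM (vertical axis) for the 35 STAT5A exon bins that passed the filter in the 34kp experiment, by bin number (horizontal axis). Filled points are 34kp over 34kp control and open points are 34kn over 34kn control; every filled point lies above 0, while the open points lie on both sides of it.

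PIM2 had 119, 109 and 104 CPM with 34kp, against 91.2, 86.1 and 93.8 CPM in 34kp controls. All 34kp libraries were above all controls, but the log2 fold change of 0.29 (SE 0.0827) had an adjusted p of 0.1001 by edgeR. It passed the test with DESeq2 (adjusted p = 0.0263), with all 12 bin libraries in the fit (adjusted p = 0.0239) and without 34kp 3 (adjusted p = 0.0277). It did not pass without TMM scaling (adjusted p = 0.151), with no filter on low counts (adjusted p = 0.0686) or without any 1 of the other 5 libraries (adjusted p = 0.118 to 0.412).

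SOCS3 had 21.1, 16.3 and 13.4 CPM with 34kp, against 12.02, 14.9 and 14.3 CPM in 34kp controls, and the groups overlapped (log2 fold change 0.29, SE 0.161, adjusted p = 0.372). CISH had 34.4, 32.1 and 29.4 CPM with 34kp, against 32.1, 40.1 and 37.1 CPM in 34kp controls (log2 fold change −0.19, SE 0.109, adjusted p = 0.381). JAK2, PIM1, SOCS1 and SOCS2 had log2 fold changes between −0.21 and 0.06, with adjusted p between 0.559 and 0.951.

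**Figure D3:**
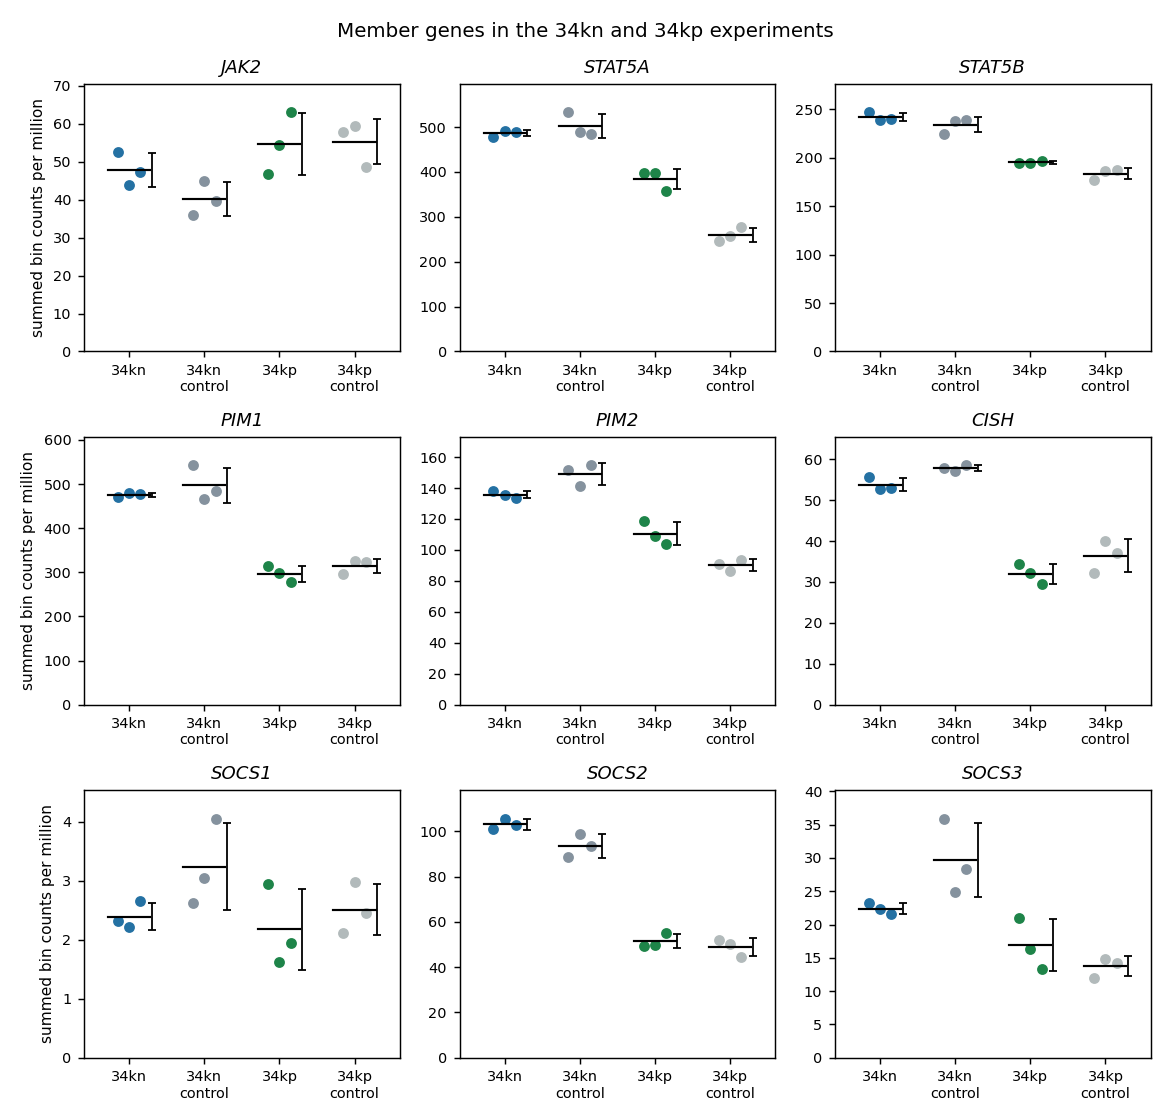
Summed bin counts as CPM scaled by TMM over 12 libraries (vertical axis, from 0) of the 9 tested members in the 34kn, 34kn control, 34kp and 34kp control libraries; points are libraries in replicate order, lines are means and bars are 1 SD. STAT5A is higher in all 3 34kp libraries than in any 34kp control, and most members lie at another level in the 34kn experiment than in the 34kp experiment.

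The difference between the effects of the enhancer RNAs was tested as the 34kn effect minus the 34kp effect over 12 libraries. Of 9 members, 2 differed, STAT5A and PIM2, where 6.36% of 17323 genes did. The difference for STAT5A was −0.61 on the log2 scale (SE 0.0909, adjusted p = 0.00174). It passed the test whichever library was left out (highest adjusted p = 0.0102).

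For PIM2 the difference was −0.43 (SE 0.0967, adjusted p = 0.0193). It did not pass without 34kn 2, without 34kn 3, without 34kn control 3 or without 34kp control 2, where the adjusted p was 0.0523, 0.0512, 0.0502 and 0.0690. SOCS3 had the largest difference of the 9, −0.71 (SE 0.217), but an adjusted p of 0.0623. It was called with DESeq2 (adjusted p = 0.0198), with no filter on low counts (adjusted p = 9.2e-04), without 34kn control 2 (adjusted p = 0.0255) and without 34kp 3 (adjusted p = 0.0103), but not without any 1 of the other 10 libraries (adjusted p = 0.0826 to 0.159).

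The control libraries of the enhancer RNA experiments were then compared with each other, a comparison added after these levels had been seen. Of 9 members, 7 were higher and 1 was lower in 34kn controls than in 34kp controls, where 37% of all genes were called, 18.2% higher and 18.9% lower (3149 and 3267 genes, or 2153 and 4366 without TMM scaling, which put the median of all genes at −0.11 on the log2 scale). The experiment and any batch cannot be told apart here. The 9 markers of other cell types summed to 40.7 to 50.4 CPM in 34kn controls and 63.4 to 66.0 CPM in 34kp controls, and the part of this in the differences was not tested.

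STAT5A averaged 502 ± 26.7 CPM in 34kn controls and 260.3 ± 15.8 CPM in 34kp controls (SD, n = 3 each; log2 fold change 0.95, SE 0.0648, adjusted p = 5.16e-08). That difference exceeds the 0.56 by which STAT5A rose with 34kp. Even with 34kp, at 384 ± 22.4 CPM, STAT5A lay below every 34kn control. SOCS3 had the largest log2 fold change of the 9, 1.11 (SE 0.155, adjusted p = 6.62e-05), at 29.7 ± 5.61 CPM in 34kn controls and 13.7 ± 1.504 CPM in 34kp controls.

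SOCS2 (0.94), PIM2 (0.72), CISH (0.67), PIM1 (0.66) and STAT5B (0.35) were also higher in 34kn controls, with adjusted p of at most 2.01e-04. JAK2 was the member that was lower, at 35.9, 44.9 and 39.7 CPM in 34kn controls, against 57.8, 59.6 and 48.6 CPM in 34kp controls (log2 fold change −0.46, SE 0.118, adjusted p = 0.00652). SOCS1 was not called (0.37, adjusted p = 0.232). All 8 calls held whichever control was left out.

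**Figure D4:**
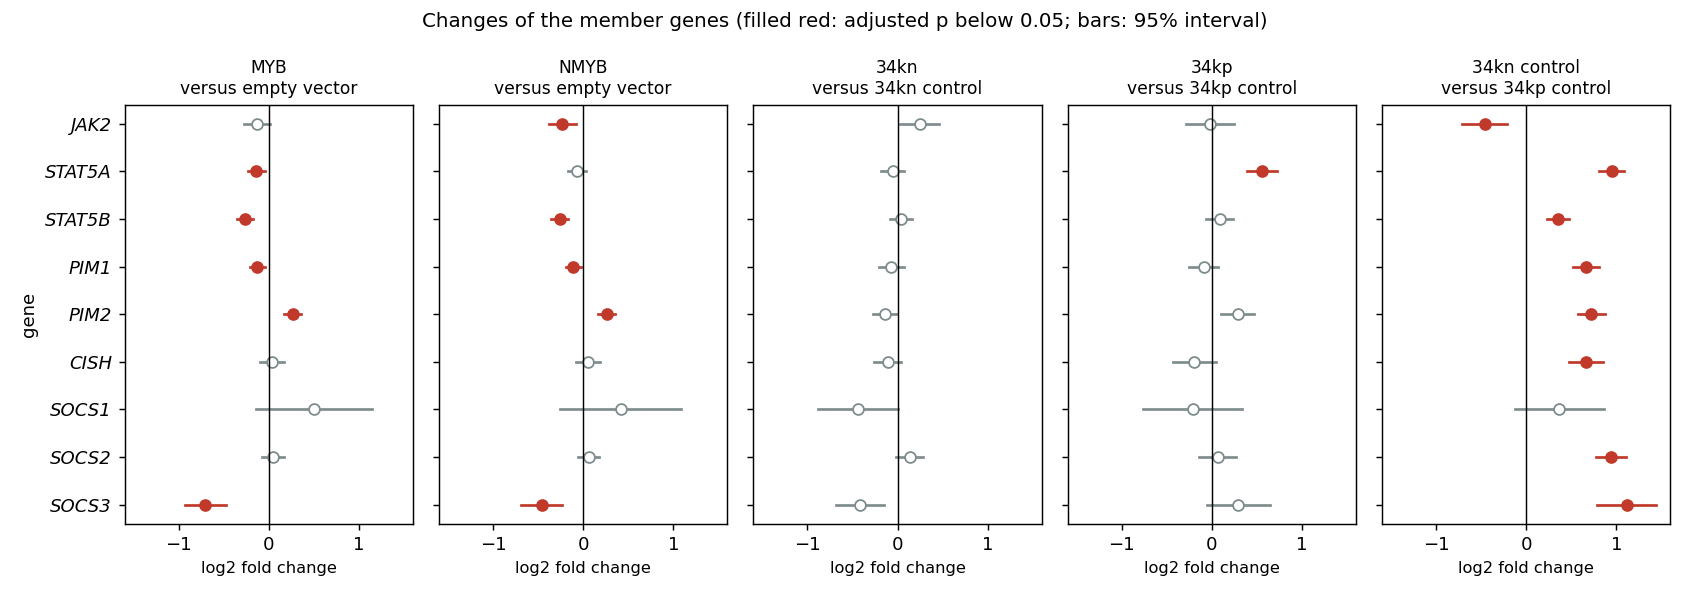
Log2 fold change (horizontal axis) of the 9 tested members (rows) in 5 comparisons (panels), as points with unadjusted 95% intervals; filled red points have an edgeR adjusted p below 0.05. PIM2 is the member to the right of 0 and filled for MYB and NMYB, STAT5A is the filled one for 34kp, and 8 of 9 are filled between the control groups, with JAK2 to the left.

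Exon usage, the change of a bin relative to its gene, was the study's stated interest in the enhancer RNA experiments. In the 34kn experiment 4 of 152 member bins tested were called with diffSpliceDGE, all of them lower with 34kn. Over all 216197 bins 0.795% were called and 0.773% were called lower. The 4 called member bins were bin 10 of PIM1, bin 10 of PIM2 and bins 29 and 30 of STAT5B. Of the 152 member bins 19 had an unadjusted p below 0.05 with diffSpliceDGE, and limma's diffSplice called 3.

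PIM2 bin 10 had 221, 240 and 306 counts with 34kn, against 803, 365 and 363 counts in 34kn controls. It made up 4.97 ± 0.804% of the counts of PIM2 with 34kn and 8.97 ± 4.14% in 34kn controls (SD, n = 3 each). Its log2 change relative to the gene was −0.86 (adjusted p = 0.00285). The bin files give no coordinates, so the place of this bin could not be checked. GENCODE 29 also divides PIM2 into 10 bins. There bin 10 is the first exon on the minus strand (chromosome X, 48918774 to 48919024).

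PIM1 bin 10 had 44, 50 and 34 counts with 34kn, against 189, 53 and 65 counts in 34kn controls (log2 change −1.19, adjusted p = 0.00788). GENCODE 29 also divides PIM1 into 11 bins, and there bin 10 lies at 37174248 to 37174312 on chromosome 6. Only the number of bins was matched, so this place could not be checked either. STAT5B bin 30 had 49, 53 and 47 counts with 34kn, against 178, 70 and 84 counts in 34kn controls (log2 change −1.20, adjusted p = 3.97e-04). STAT5B bin 29 had 151, 157 and 133 counts with 34kn, against 288, 201 and 212 counts in 34kn controls (log2 change −0.71, adjusted p = 0.0173).

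At all 4 bins every control lay above every 34kn library, and 34kn control 1 was the highest of all. Without 34kn control 1, diffSpliceDGE called 0 member bins and 351 bins in all. Without 34kn control 2 it called 8 member bins, and with 34kn 1 or 34kn 2 left out it called 1. In the 34kp experiment, replicate 1 with 34kp was likewise the highest of the 6 libraries at all 4 bins as a share of the gene. There diffSpliceDGE called 0 of 141 member bins, where 0.00862% of 220442 bins were called. In that comparison 2 member bins had an unadjusted p below 0.05, and limma's diffSplice called 0.

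**Figure D5:**
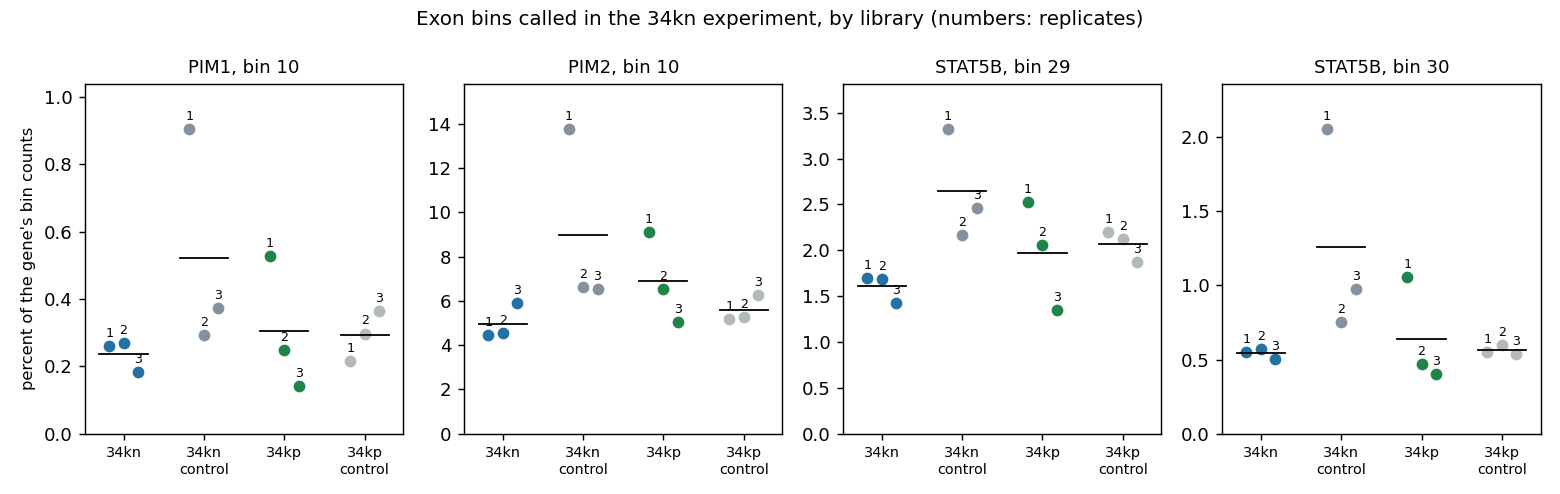
Share of a gene's bin counts held by a bin, in percent (vertical axis, from 0), for the 4 member bins called in the 34kn experiment, in all 4 groups; points are libraries numbered by replicate and lines are group means. Replicate 1 of the 34kn controls lies far above the other libraries in each panel, and replicate 1 of 34kp is the highest of its experiment.

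Other genes of the pathway were counted from 5 lists. In libraries labelled MYB, where 9.62% of all genes rose and 12.7% fell, 1 of 6 other JAK and STAT genes tested rose and 4 fell, with STAT3, STAT6 and JAK1 at −0.39, −0.39 and −0.33 on the log2 scale; the median was −0.29, against 0.01 over all genes. Of 14 cytokine receptor genes 1 rose and 4 fell (median −0.09), with LIFR, a receptor chain for the interleukin 6 family, at 0.68 and the interleukin 2 receptor genes IL2RB and IL2RG at −1.32 and −0.95. Both were low. IL2RB averaged 0.393 CPM in libraries labelled MYB and 0.999 CPM with empty vector (SE of the log2 fold change 0.334). IL2RG averaged 2.71 and 5.29 CPM (SE 0.153). Of 16 further inhibitors of the pathway 4 fell (median −0.08), among them SH2B3, an adaptor that restrains JAK2, at −0.65 and the ubiquitin ligase gene CBL at −0.52. Of 20 other reported STAT5 targets 1 rose and 4 fell (median −0.09), with the survival gene MCL1 at −0.39 and ID2 at −0.66. Of 9 adaptors and kinases tied to BCR-ABL1, GAB2 rose (0.21) and the median was −0.07.

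In libraries labelled NMYB, where 12.6% of all genes rose and 12.4% fell, 4 of the 6 JAK and STAT genes fell, with STAT3 at −0.34, and 4 of the 14 receptor genes fell, with IL2RG at −0.99. The inhibitors counted 1 risen and 5 fallen, with PIAS4 at 0.28 and SH2B3 at −0.62. The targets counted 4 risen and 3 fallen, with ID1 at 0.67 and MCL1 at −0.32. Of the BCR-ABL1 list, LYN (−0.18) and ABL1 (−0.15) fell. Between NMYB and MYB the 1 call over the 5 lists was ID1, at 0.57.

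With 34kn no gene of the 5 lists was called by edgeR, while 1 of 6 receptor genes, 2 of 5 JAK and STAT genes, 3 of 15 inhibitors, 4 of 16 targets and 1 of 6 genes of the BCR-ABL1 list had an unadjusted p below 0.05, beside 3759 of all 16116 genes. With 34kp, where 2.35% of all genes were called and 0.63% rose, 5 genes of the lists were called. Of 6 JAK and STAT genes 1 rose. CCND1, which encodes cyclin D1, rose by 0.73 on the log2 scale and ID1 by 0.56, and CBLB (−0.54) and GAB2 (−0.49) fell. CCND1 and ID1 were 2 of 17 targets tested. The lists were chosen with earlier results of these data known, and no test was made of a list.

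For each tested member the genes whose levels ran most alike were sought, by the mean of the correlation over the 9 gene table libraries and that over the 12 bin libraries, where levels were centred within each experiment. Among 12766 genes the nearest to JAK2 was TMEM161B (mean r = 0.932). The nearest to STAT5A was PHF19 (0.947) and to STAT5B ZMYND8 (0.915). PIM1 ran with PLEKHA4 (0.952) and PIM2 with UNG (0.952). Among the inhibitors, SOCS3 ran with ERCC2 (0.964), CISH with MAN2A2 (0.878), SOCS2 with RPF1 (0.837) and SOCS1 with FAM174A (0.817). CISH, SOCS1 and SOCS2 were called in no comparison of a construct or enhancer RNA with its control. SOCS1 had only 10 to 26 counts a library in the gene table, so its value there holds much counting error. These libraries share groups and controls, and the values describe likeness only.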

How the data were processed

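RNA of 21 K562 libraries was sequenced. The deposited values are raw counts: a gene count table for 9 libraries and exon bin counts in 1 file for each of 12. Per the submitters' processing notes the tools were Trimmomatic 0.93, HISAT2 2.2.1, STAR 2.7.10a and featureCounts 2.0.1, and the build was GRCh38. The annotation release and strand setting are not given in the sources used here, so antisense or overlapping transcripts cannot be told apart. The 5 lines of each bin file that name no bin stayed out of the totals and tests; of all counts listed, those lines included, reads in no bin made up 29.5% to 32.8% and reads of low alignment quality 4.46% to 10.5%.

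Tests used edgeR 4.0.16 (R 4.3.3) after TMM scaling and filterByExpr at a minimum count of 10 (robust quasi-likelihood F test, two-sided, Benjamini-Hochberg adjustment over all genes tested, threshold 0.05). The 9 libraries of the gene table were fitted together, each enhancer RNA experiment on its 6 libraries with bin counts summed per gene, and the 34kn minus 34kp difference and the added comparison of controls on 12 libraries. Bin usage was tested with diffSpliceDGE in genes that kept 2 bins or more after filtering, and bin p-values were adjusted over all bins. Levels are CPM scaled by TMM; a read that spans several bins may be counted in each. Genes most alike were ranked as the report states. Alternatives were DESeq2 1.42.0, limma 3.58.1 for bins, no TMM scaling, no filter, a minimum count of 20 for bins, other samples in the fit, a replicate block and each library left out. The fits were tested on simulated data. The members and the lists were chosen with earlier results of these data known. All members are named, and of each other list genes were taken from the 3 called genes with the largest change in each direction. Results for some genes of these lists are not reported here. Intervals cover counting error and the spread between these libraries only.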

Additional observations from a re-analysis of the deposited data

Results flagged for a closer look

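The effects of the enhancer RNAs differed for STAT5A and PIM2 by the test of the difference itself. STAT5A had a 34kn effect minus 34kp effect of −0.61 on the log2 scale (edgeR, adjusted p = 0.00174), with a 34kn effect of −0.05 and a 34kp effect of 0.56. It was higher in all 3 34kp libraries than in any 34kp control. PIM2 had a difference of −0.43 (edgeR, adjusted p = 0.0193), with a 34kn effect of −0.14 and a 34kp effect of 0.29, neither called alone. It did not pass without 34kn 2, 34kn 3, 34kn control 3 or 34kp control 2 (adjusted p = 0.0502 to 0.0690). PIM2 was lower in all 3 34kn libraries and higher in all 3 34kp libraries than in any library of their controls. Groups without overlap were seen in 29.2% of all genes for 34kn and in 23.8% for 34kp. In both genes the 34kp controls stood below the 34kn controls, and the part of that gap in the differences was not tested.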

How the results depend on the processing

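Over the settings other than leaving out a library, the log2 fold changes of the members kept their direction and their side of the threshold in 272 cases, passed the test where they had not in 6, no longer passed it in 9 and turned round in 10. All 10 were small. For NMYB against MYB, STAT5B was at −0.0027 with DESeq2, −0.0112 without TMM scaling, −0.018 with no filter on low counts and −0.0105 with only these groups in the fit. SOCS2 was at −0.0035 without TMM scaling, −0.00976 with no filter and −0.00263 with only these groups, and with no filter PIM1 was at −0.00351 and CISH at −0.00552. STAT5B in the 34kn minus 34kp difference was at 0.0117 without TMM scaling. The causes of these shifts were not tested.

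Of the member counts, libraries labelled MYB had 3 without TMM scaling and libraries labelled NMYB had 3 with only 2 groups in the fit. For 34kn the count was 1 with DESeq2 and 1 with no filter, and for 34kp it was 2 with DESeq2, 2 with 12 libraries in the fit and 0 with a replicate block. Counts over all genes were 399, 656 and 60 for NMYB against MYB with DESeq2, with no filter and with only these groups; 1289 and 1572 for 34kn with DESeq2 and with no filter; 976, 997 and 817 for 34kp with DESeq2, with no filter and with 12 libraries; and 2056 and 2085 for the 34kn minus 34kp difference with DESeq2 and with no filter. Without TMM scaling, calls for NMYB against MYB were 63 higher and 186 lower, against 82 and 99, and calls for the 34kn minus 34kp difference were 617 and 414, against 491 and 611. DESeq2 gave 404 and 572 for 34kp.

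The labels do not say whether same-numbered replicates belong together. Over 15 same-numbered pairs the correlation of deviations from group means ran from −0.167 to 0.0994. Within the MYB, NMYB and empty-vector libraries it ran from −0.0232 to 0.0994 for same numbers and from −0.122 to 0.0858 for different numbers. These values do not settle whether the replicates are paired. With the number as a replicate block, STAT5A with 34kp had an adjusted p of 0.0533 at a log2 fold change of 0.56, and PIM2 in the 34kn minus 34kp difference had one of 0.113, which left 1 member called there. The block changed no other member call. Genes called with the block were 4342 for MYB (3529 without it), 4713 for NMYB (3945) and 1184 for NMYB against MYB (181). They were 71 for 34kp and 105 for the difference, and 8 bins were called for 34kp.

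Leaving out each library in turn gave 3 to 3 members called for MYB, 3 to 5 for NMYB, 0 to 0 for NMYB against MYB, 0 to 2 for 34kn, 0 to 2 for 34kp, 1 to 3 for the difference and 8 to 8 between controls. Member bins called were 0 to 8 for 34kn and 0 to 0 for 34kp. Over all genes the counts were 2491 to 2889 for MYB, 2711 to 3900 for NMYB, 0 to 323 for NMYB against MYB, 0 to 2982 for 34kn, 46 to 1175 for 34kp, 380 to 2747 for the difference and 4705 to 6425 between controls. Over all bins they were 255 to 8399 for 34kn and 4 to 60 for 34kp. Directions turned round in changes that were not called: for NMYB against MYB, CISH (−0.0703 to 0.0583), PIM1 (−0.00801 to 0.0384), PIM2 (−0.032 to 0.00354), SOCS1 (−0.403 to 0.0576), SOCS2 (−0.0538 to 0.0322) and STAT5B (−0.0376 to 0.0271); for NMYB, CISH (−0.0200 to 0.0937); for 34kn, PIM1 (−0.114 to 0.000778); for 34kp, JAK2 (−0.132 to 0.0822); and for the difference, PIM1 (−0.0285 to 0.0853) and SOCS1 (−0.402 to 0.0567). Depth limits OSM, with 0 to 3 counts a library in the gene table, and SOCS1 most.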
